A study of Mus musculus with 19 samples.

Results

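The 8 mouse genes Exoc1, Tdrd7, AA465934, Rai1, Arhgef25, Abhd16a, Srp68 and Acad11 were chosen by the share of a transcript in its gene's counts, which differed between Mettl14 knockout and wild-type neural progenitor cells. They are 8 of 54749 genes with annotated targets in the libraries, and they hold 60 annotated transcripts. The transcript shares in that contrast chose the genes, so they are given as a description and carry no test. Shares in standard libraries of wild-type cells may have been known at the choice, and the wild-type ladder libraries they are set against took part in it. The shares in that comparison are therefore given without a test too. Transcript structures assembled from long reads may also have been known, and they are only described.

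The cells are neural progenitors, the dividing cells that give rise to cortical neurons and glia, taken from the cortex of mouse embryos with intact Mettl14 (wild type, WT) or a conditional knockout of it (KO). All were cultured in medium that held 20 ng/ml FGF2 and as much EGF. The promoter that drives the deletion and the age of the embryos are not given in the labels. In the ladder libraries (4 WT, 4 KO) mRNA was separated by length into 7 bands, each with its own barcode, and read as pairs of 75 bases. The 3 standard libraries came from WT cells, were not separated by length and were read as single ends of 50 bases. Long nanopore reads, of native RNA or of direct cDNA with 2 replicates for each genotype and chemistry, were deposited as 8 assemblies, each from 1 of 2 programs (StringTie and FLAIR) and pooling both replicates. Estimated counts summed to between 103752000 and 126922000 in WT ladder, 104900000 and 118198000 in KO ladder and 12084500 and 13987900 in standard libraries.

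Gene levels are given in CPM, counts scaled to the library's total and adjusted between libraries by TMM scaling. Mettl14 had 24.9, 20.2, 28.4 and 27.6 CPM in the WT ladder libraries. In the KO ladder libraries it had 6.13, 8.07, 6.63 and 6.91 CPM, so the genotypes did not overlap. The neural progenitor markers Nes, Sox2, Pax6, Fabp7, Vim and Slc1a3 summed to between 7360 and 7790 CPM in WT and between 5220 and 6030 CPM in KO ladder libraries, with 1 of the 6 higher and 2 lower in KO by the gene-level test. Other cell types' marker sums moved with the genotype. All 5 neuron markers were lower in KO and summed to 36.3 to 40.7 CPM in WT and 13.4 to 15.9 CPM in KO. Of 5 oligodendrocyte lineage markers 3 were lower and 1 higher, with sums of 95.8 to 119 and 13.3 to 15 CPM. All 5 astrocyte markers were higher, with sums of 348 to 369 and 553 to 591 CPM. Low sums also separated the genotypes: 0.363 to 0.609 CPM in WT and 2.63 to 3.36 CPM in KO for fibroblast markers (3 of 4 tested were higher), 0.0923 to 0.141 and 0.241 to 0.335 CPM for microglia markers (1 of 1 higher), and 3.63 to 4.66 and 5.01 to 5.45 CPM for endothelial and mural markers (3 of 4 higher, 1 lower). No marker was at 0 in all ladder libraries. The part of these shifts in the transcript shares below was not tested.

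Many genes give rise to several mRNAs by starting at another first exon, by including or skipping an exon, or by keeping an intron. The Mettl14 protein works together with Mettl3 in writing N6-methyladenosine, an mRNA mark known to bear on splicing, export, decay and translation. A transcript share is the percentage of a gene's estimated counts that the quantifier kallisto gave to 1 annotated transcript. Short reads tell such transcripts apart only where their sequences differ. Of the 16 transcripts with the largest gain or loss of share, Exoc1-202 held 19 words of 31 bases (the default word length of kallisto) that no other annotated ladder target holds, among 3341 words. Rai1-207 held 2 such words of 7095. Arhgef25-201 and Srp68-201 held none, so their shares rest on words that they share with other transcripts. Tdrd7-201 held 203 of 3686, AA465934-203 held 21 of 353 and Rai1-202 held 1403 of 7187. The words of Exoc1-202 and AA465934-203 do not mark the exon and the acceptor site described below, which other annotated transcripts share. They lie where these 2 transcripts reach past the others of their gene. Exoc1-202 starts at base 76529311 and Exoc1-203 at 76529323, and Exoc1-202 ends at base 76570294 and Exoc1-201 at 76570287. AA465934-203 starts at base 83291699 and AA465934-202 at 83291720.

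Ranked by the largest difference of a mean share between the ladder genotypes, among 9688 genes with at least 2 transcripts and an average log2 CPM of 2 or more, AA465934 stood at rank 1 and Exoc1 at rank 2. Tdrd7 stood at rank 8, Acad11 at rank 14, Arhgef25 at rank 43, Srp68 at rank 193, Abhd16a at rank 207 and Rai1 at rank 1091. The median difference over those genes was 3.14 percentage points, and 18 genes reached 50 points. In all 8 genes the genotypes' libraries did not overlap for a transcript whose mean share differed by at least 10 points, which held for 14.8% of the 9688 genes. This count follows from how the genes were chosen. The transcript usage test in edgeR called 19.6% of the 10532 genes it covered in this contrast and 6.92% of single transcripts.

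**Figure D1:**
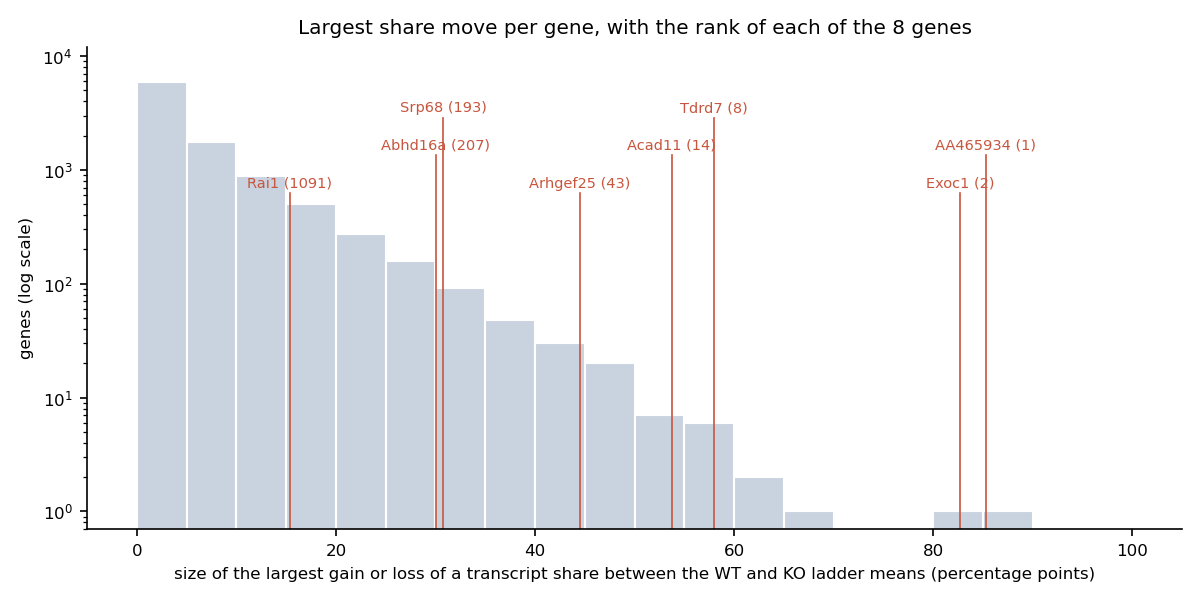
Histogram of the size of the largest gain or loss of a transcript share between the WT and KO ladder means (x axis, percentage points) over 9688 genes (y axis, log scale), with a line at each of the 8 genes and its rank in parentheses. AA465934 and Exoc1 lie beyond 80 points, and Rai1 lies lowest of the 8 genes, at 15.4 points and rank 1091.

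Exoc1 (chromosome 5, forward strand) encodes the exocyst subunit also known as Sec3, which takes part in tethering secretory vesicles to the plasma membrane. Its 3 main coding transcripts differ by 2 short coding exons, shown here from the GENCODE M21 transcripts (GRCm38, forward strand) with the exon in capitals and 15 bases of the neighbouring exons in lower case.
The first lies at chr5:76540747-76540767 and the second at chr5:76557819-76557863. Both keep the reading frame, since their lengths are multiples of 3.
Exoc1 21-base exon: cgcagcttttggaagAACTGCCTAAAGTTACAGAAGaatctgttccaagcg
Exoc1 45-base exon: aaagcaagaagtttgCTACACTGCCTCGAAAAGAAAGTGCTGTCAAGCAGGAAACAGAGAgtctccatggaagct
Exoc1-201 has neither exon, Exoc1-202 has the 45-base exon alone and Exoc1-203 has both. None of the 12 annotated transcripts has the 21-base exon without the 45-base exon.

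Exoc1-202 took 0.213%, 1.21%, 25.2% and 14.4% of the gene's counts in the WT ladder libraries and 93.3%, 92.3%, 95.0% and 91.3% in the KO ladder libraries. The WT libraries differed widely among themselves and the KO libraries little, and the genotypes lay far apart. Exoc1-201 went the other way, with 46.8%, 67.6%, 31.6% and 51.9% in WT and no count in any KO library, where 3 counts would have been between 0.212% and 0.377% of the gene. Exoc1-203 held 32.5% ± 8.43 (SD, n = 4) in WT and was also below that limit in every KO library. Expressed as exons, transcripts with the 45-base exon held 43.4% ± 11.8 of the counts in WT and 93.2% ± 1.57 in KO ladder libraries (n = 4 each). The 21-base exon was at 32.5% in WT and below the limit in KO. The standard WT libraries gave Exoc1-202 4.36%, 15.04% and 36.8%, within or near the WT ladder range and well below KO. As a share of deposited TPM, which divides by transcript length, the difference between the genotypes was 68.1 points in place of 82.7.

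The long reads gave another picture of the same 2 exons. Not one structure in the 8 assemblies held the 45-base exon, and 15 structures spanned its place and skipped it. The 21-base exon, in contrast, was present without its partner. In native RNA, StringTie structures with the 21-base exon summed to 3.85 TPM and structures skipping it to 12.3 TPM in WT, a share of 23.8%. The WT structure with the exon starts at that exon and covers only the rest of the gene. In KO the structure with the exon reached 21.7 TPM and spanned the whole gene, with none skipping it and 1.87 TPM in a structure that could not be assigned. The direct cDNA assemblies gave the same order, with 0.646 TPM with the exon and 1.02 TPM without it in WT (38.7%) and 2.08 TPM and 0 in KO. Exoc1 thus differed by genotype in both kinds of data, but the 2 did not agree. In short-read estimates the 45-base exon gained, and the 21-base exon fell from 32.5% to below the limit of 3 counts. These estimates cover annotated transcripts alone, and none of those has the 21-base exon without the 45-base exon, a form that the long-read structures held. Unannotated targets, with 11.9% to 13.4% of all ladder counts, were left out of the shares. Whether any of them came from Exoc1 was not tested. In long-read structures the 21-base exon went the opposite way. It rose from 23.8% to 100% of the native TPM that could be assigned, and from 38.7% to 100% in cDNA. Each assembly pools 2 replicates, so no error can be given and no test was made. FLAIR, which gives structures without abundance, held structures with and without the 21-base exon in native WT, native KO and cDNA KO, and only the form without it in cDNA WT. The native WT and KO assemblies of FLAIR share 12342 structures named after the same reads, so they are not separate observations of the genotypes.

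**Figure D2:**
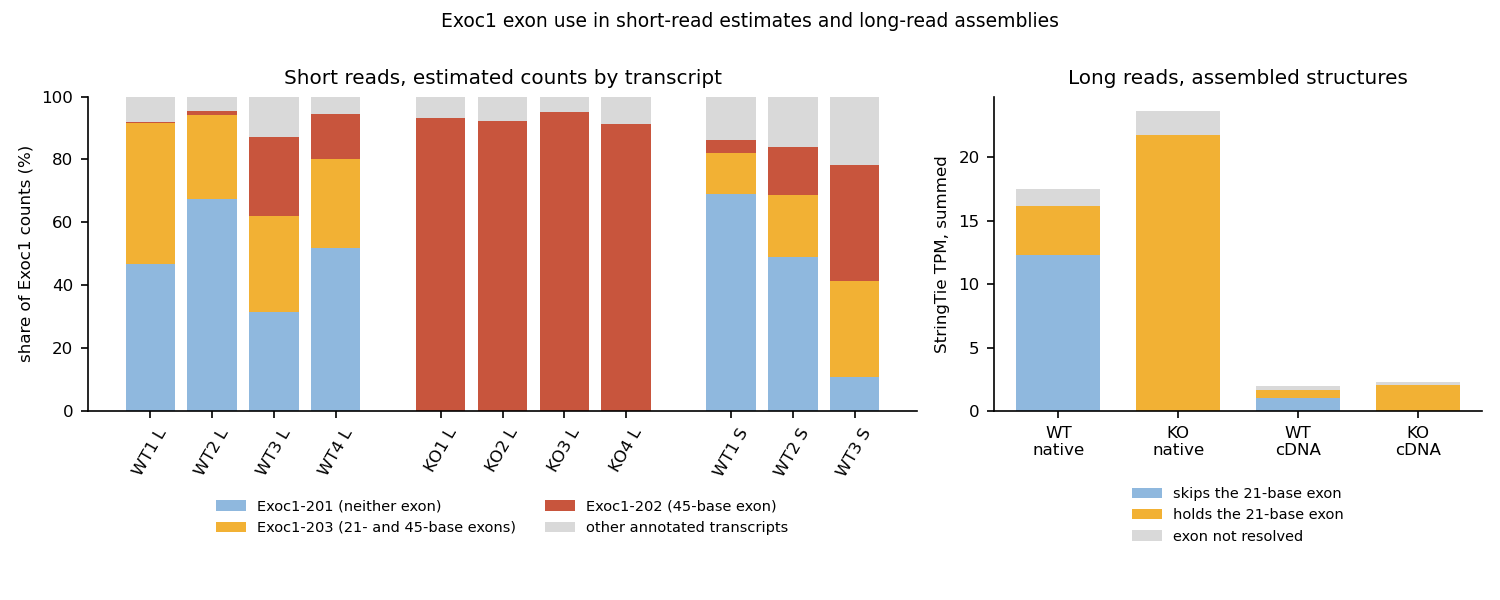
Left, share of Exoc1 estimated counts (y axis, percent) by transcript in each of the 11 short-read libraries (L, ladder; S, standard). Right, StringTie TPM (y axis) summed over Exoc1 structures that hold or skip the 21-base exon in each of the 4 assemblies. Exoc1-202 fills over 91% of the bar in all 4 KO ladder libraries, while both KO assemblies consist of structures with the 21-base exon apart from a small unresolved part.

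Tdrd7 (chromosome 4, forward strand) encodes a tudor domain protein of cytoplasmic RNA granules, studied in germ cells and the eye lens. Its 2 main transcripts, Tdrd7-201 and Tdrd7-202, differ in their first exon and join at the second. The coding part of the first exon of Tdrd7-202, at chr4:45965384-45965476, is given in capitals, since this exon sets the 2 transcripts apart. Tdrd7-201 begins its coding sequence in the second exon.
The stretches before the 2 starts are shown beneath it, cut from the promoter windows of RefSeq (GRCm38.p6, forward strand) at the GENCODE start, with each CG pair in capitals: chr4:45965085-45965333 for Tdrd7-202 and chr4:45972047-45972232 for Tdrd7-201.
Tdrd7-202 first coding exon: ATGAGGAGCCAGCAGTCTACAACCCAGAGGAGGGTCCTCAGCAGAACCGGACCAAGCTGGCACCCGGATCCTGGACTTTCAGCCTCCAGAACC
Before Tdrd7-202: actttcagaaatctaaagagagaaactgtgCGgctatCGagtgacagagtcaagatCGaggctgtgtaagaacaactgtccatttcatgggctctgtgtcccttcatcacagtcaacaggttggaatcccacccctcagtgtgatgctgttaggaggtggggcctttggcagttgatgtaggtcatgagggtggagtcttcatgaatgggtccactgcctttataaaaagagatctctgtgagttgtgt
Before Tdrd7-201: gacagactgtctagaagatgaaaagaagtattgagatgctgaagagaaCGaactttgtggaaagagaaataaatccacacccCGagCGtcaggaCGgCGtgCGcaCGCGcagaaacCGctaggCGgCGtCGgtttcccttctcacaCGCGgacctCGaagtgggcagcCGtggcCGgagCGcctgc
The full RefSeq windows, from 250 bases before to 50 after the start, hold 4 CG pairs for Tdrd7-202 and 32 for Tdrd7-201. As many or more are found in 68.6% and 9.52% of the 32851 RefSeq promoter windows of that length. CG reads the same on both strands.

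Tdrd7-201 took 50.0%, 8.64%, 52.8% and 45.8% of the gene in WT ladder libraries and 96.7%, 98.3%, 96.9% and 97.1% in KO ladder libraries, and Tdrd7-202 took nearly all of the rest. WT ladder replicate 2 stood apart from the other WT libraries, and without it the difference between the genotypes was 47.7 points in place of 57.9. The standard WT libraries, with 97.9%, 95.8% and 76.1% of Tdrd7-201, lay nearer to the KO than to the WT ladder libraries and did not overlap the latter. In the long reads, the complete intron chain of Tdrd7-201 was in all 4 StringTie assemblies, at 15.5 TPM in WT and 30.2 TPM in KO native RNA and at 1.47 and 2.35 TPM in cDNA. The first intron of Tdrd7-202 was in none of the 8 assemblies, WT included.

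AA465934 (chromosome 11, forward strand) is annotated as a long non-coding RNA gene, and its transcripts are 308 to 471 bases long. The first intron of AA465934-203 is kept in AA465934-201. AA465934-202 splices from the same donor to an acceptor site 7 bases further on. Both forms are shown from GENCODE M21 (GRCm38, forward strand): the kept intron, chr11:83291834-83291966, with 10 exon bases on each side in lower case, and the joint of AA465934-203, with the 7 bases between the acceptor sites in capitals.
AA465934-201, kept intron: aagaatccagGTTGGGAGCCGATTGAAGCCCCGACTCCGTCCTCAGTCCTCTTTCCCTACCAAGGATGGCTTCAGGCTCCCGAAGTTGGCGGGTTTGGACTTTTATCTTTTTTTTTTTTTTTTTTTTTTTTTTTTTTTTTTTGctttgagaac
AA465934-203, joint: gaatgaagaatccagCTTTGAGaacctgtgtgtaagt
The intron as AA465934-203 removes it starts with GT and ends with TG, and as AA465934-202 removes it, ends with AG, the usual end of an intron. It holds a run of 35 T.

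AA465934-203 took 3.99%, 5.04%, 2.83% and 3.39% of the gene in the WT and 88.7%, 88.9%, 87.8% and 90.9% in the KO ladder libraries, the widest gap among the 9688 genes. Of the others, 3 lost share: AA465934-201 from 61.1% ± 4.85 to 5.27% ± 0.888, AA465934-204 (another retained intron form) from 20.2% ± 3.69 to 3.22% ± 0.789 and AA465934-202 from 14.9% ± 5.66 to 2.29% ± 0.524 (SD, n = 4 each). The acceptor site of AA465934-203 is shared with AA465934-204 and the little-counted AA465934-205. The gene itself stood at 2.00, 1.92, 2.44 and 2.44 CPM in WT and at 10.8, 9.43, 12.2 and 15.4 CPM in KO ladder libraries, a log2 difference of 2.44 ± 0.165 (SE). Its WT shares rest on only 199 to 303 counts a library. None of its annotated transcripts was a target in the standard libraries, so the gene could not be measured there. StringTie found the kept-intron structure, of the AA465934-201 type, in all 4 assemblies, at 3.40 TPM in WT and 9.16 TPM in KO native RNA and at 0.888 and 0.870 TPM in cDNA. The first intron of AA465934-203 was in none of the 8 assemblies, and FLAIR held the acceptor of AA465934-202 in native WT, native KO and cDNA KO. The long reads thus showed no AA465934-203 in the KO cells, where it held most of the short-read counts.

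Rai1 (chromosome 11, forward strand) encodes a chromatin-associated regulator of transcription whose loss causes Smith-Magenis syndrome in people. Rai1-202 does not splice after the large coding exon but reads on for 9 coding bases to a stop, shown in capitals (chr11:60190623-60190631, GRCm38, forward strand).
Rai1-202 read-on: atgaaggtagctgtggacatgGTAAGAGGC
Rai1-202 had no count in any of the 4 WT ladder libraries, where 3 counts would be 0.0382% to 0.0533%, and took 12.4%, 14.8%, 14.3% and 16.0% in KO ladder libraries.
The standard WT libraries gave it 12.4%, 14.1% and 13.2%, within the KO range, so the absence was seen only in the WT ladder libraries among these 11.
Rai1-207 took 26.3%, 8.06%, 18.2% and 8.90% in WT ladder, less than the limit of 3 counts in every KO ladder, and 14.7%, 6.45% and 9.95% in standard libraries. The leading transcript, Rai1-201, overlapped, at 69.0% ± 12.5 in WT and 71.6% ± 4.46 in KO ladder libraries.
Among long-read structures, the chain of Rai1-202 was found once, in WT cDNA at 0.128 TPM, and that of Rai1-207 in none. The Rai1-202 chain is a single intron, which other Rai1 transcripts also have.

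Arhgef25 (chromosome 10, reverse strand) encodes a guanine nucleotide exchange factor, a protein that activates small GTPases. Its transcripts Arhgef25-201, Arhgef25-202 and Arhgef25-205 start at different first exons and have coding lengths of 1854, 1827 and 1737 bases. Arhgef25-201 was below the limit of 3 counts in the 4 WT ladder libraries and took 36.9%, 62.9%, 36.9% and 41.2% in KO, the highest in replicate 2. Arhgef25-205 took 58.6%, 29.0%, 54.1% and 40.8% in WT and 19.9%, 26.1%, 28.6% and 19.3% in KO, where the nearest libraries of the genotypes were less than 1 point apart. The third, Arhgef25-202, overlapped between the genotypes, at 35.7% ± 15.5 in WT and 24.5% ± 14.8 in KO, and had its lowest KO value, 3.06%, in the same replicate 2. The standard libraries, with only 100 to 304 counts of the gene, gave Arhgef25-201 22.9% in replicate 2 and less than 3 counts in the others. In the StringTie assemblies Arhgef25-201 was found only in WT cDNA, at 0.310 TPM, and Arhgef25-205 in WT cDNA at 0.149 and KO cDNA at 0.932 TPM. FLAIR held the Arhgef25-205 chain in all 4 of its assemblies and Arhgef25-201 in none. The native RNA structures of StringTie began downstream of the differing exons.

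Abhd16a (chromosome 17, forward strand) encodes a membrane-bound lipase that makes lysophosphatidylserine from phosphatidylserine. Abhd16a-207 skips the 67-base coding exon below (capitals, with 15 bases of flanking exons, chr17:35091022-35091088, GRCm38, forward strand). Since 67 is not a multiple of 3, the frame shifts, and the annotation gives Abhd16a-207 a coding length of 195 bases in place of 1674 and the class of nonsense-mediated decay.
Abhd16a 67-base exon: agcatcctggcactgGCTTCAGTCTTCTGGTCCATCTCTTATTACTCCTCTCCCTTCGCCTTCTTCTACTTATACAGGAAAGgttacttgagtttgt
Abhd16a-207 took 25.5%, 20.7%, 48.6% and 25.3% in KO ladder libraries. In the WT ladder and the standard libraries it was below the limit of 3 counts throughout.
The full-length Abhd16a-201 took 97.2% ± 0.145 (SD, n = 4) in WT and 67.6% ± 12.6 in KO ladder libraries. Its WT values varied little, and KO replicate 3, at 49.0%, was the lowest.
Abhd16a-201 was the whole chain of the gene in all 4 StringTie assemblies, with 26.5 TPM in WT and 17.9 TPM in KO native RNA and 2.83 and 1.29 TPM in cDNA. The junction that skips the 67-base exon was in none of the 8 assemblies.

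Srp68 (chromosome 11, reverse strand) encodes a protein of the signal recognition particle, which brings ribosomes with secretory nascent chains to the endoplasmic reticulum. Srp68-202 lacks the 114-base coding exon below (chr11:116268274-116268387, GRCm38, reverse strand), which keeps the frame.
Srp68 114-base exon: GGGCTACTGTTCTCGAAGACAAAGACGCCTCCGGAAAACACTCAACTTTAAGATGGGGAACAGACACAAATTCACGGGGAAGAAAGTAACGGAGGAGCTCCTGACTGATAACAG
The full-length Srp68-201 took 91.9%, 87.7%, 52.4% and 43.5% in WT and 99.2%, 99.6%, 100.0% and 100.0% in KO ladder libraries. WT replicates 1 and 2 were high and WT replicates 3 and 4 low, and all 4 lay below the KO libraries.
Srp68-202 took 0.791%, 4.20%, 29.4% and 32.6% in WT and at most 0.785% in KO, so WT replicate 1 and KO replicate 1 were nearly equal. Srp68-203, a non-coding transcript, took 7.20%, 8.01%, 18.2% and 23.8% in WT and had no count in KO.
The standard WT libraries, with 96.4%, 99.7% and 100.0% of Srp68-201, overlapped the KO and not the WT ladder libraries. Srp68-203 had no count in any of the 3 standard libraries either.
All 4 StringTie assemblies held the Srp68-201 chain, at 49.8 TPM in WT and 22.0 TPM in KO native RNA and at 4.89 and 4.07 TPM in cDNA, and none of the 8 held the Srp68-202 junction.

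Acad11 (chromosome 9, forward strand) encodes an acyl-CoA dehydrogenase, an enzyme family of fatty acid oxidation. Acad11-201 and Acad11-202 start at different first exons and have coding lengths of 2337 and 1983 bases. Their last exons also end at different bases, 104127725 and 104127463, so short reads can tell them apart at both ends. Acad11-201 took 45.5%, 32.7%, 54.3% and 48.5% in WT and 98.1%, 98.8%, 99.4% and 98.4% in KO ladder libraries, and Acad11-202 took nearly all of the rest in WT and less than 3 counts in KO. In the standard WT libraries, with only 124 to 182 counts of the gene, Acad11-201 took 90.8%, 62.2% and 98.8%, all above the WT ladder range. The Acad11-201 chain was in the WT native RNA assembly at 13.4 TPM, in WT cDNA at 1.21 TPM and in KO cDNA at 0.246 TPM. The KO native structure, at 3.34 TPM, covered only the end of the gene. FLAIR held the Acad11-201 chain in all 4 of its assemblies, and no assembly of either program held the first intron of Acad11-202.

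**Figure D3:**
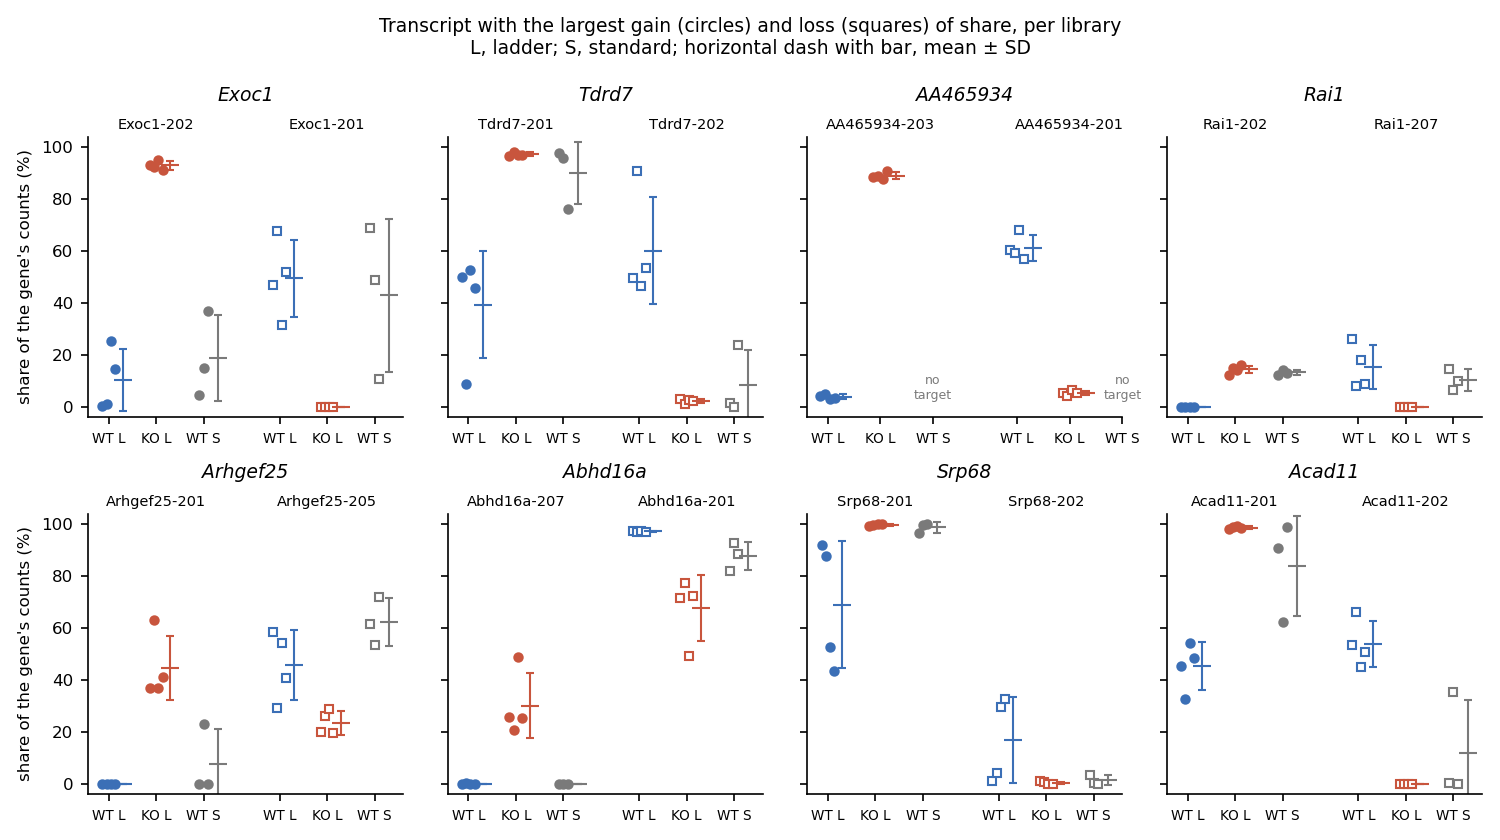
Share of the gene's estimated counts (y axis, percent) of the transcript with the largest gain (circles) and the largest loss (squares) of mean share in each of the 8 genes, one point per library in WT ladder (WT L), KO ladder (KO L) and WT standard (WT S) libraries, with mean ± SD. In all 8 genes the ladder genotypes do not overlap for either transcript, and the standard mean lies nearer to KO than to WT ladder in Tdrd7, Rai1, Srp68 and Acad11.

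Set side by side, the 8 genes fall into several kinds of difference. In Tdrd7, Arhgef25 and Acad11 the transcripts differ in their first exon, and in Acad11 also in the end of the last exon. In Exoc1, Abhd16a and Srp68 they differ by internal coding exons, and in AA465934 and Rai1 by an intron kept or read into. In 7 of the 16 transcripts the share was 1% or less of the gene in 1 of the ladder genotypes. For 4 of the 7 genes with standard targets (Tdrd7, Rai1, Srp68 and Acad11), the mean share of the gaining transcript in standard WT libraries lay nearer to KO ladder than to WT ladder libraries. For Exoc1, Arhgef25 and Abhd16a it lay nearer to WT ladder. The usage test of WT ladder against standard libraries called 58.1% of 9998 genes and 27.4% of single transcripts. For the 7 genes no p is given, since the WT ladder shares took part in their choice.

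The 2 kinds of WT library differ in length separation, read length, pairing, depth and target sets, and the marker genes of other cell types differ between them as well. Endothelial and mural markers summed to 769 to 1732 CPM in standard and 5.09 to 6.58 CPM in WT ladder libraries over shared targets, nearly all of it from Pecam1 (766, 1725 and 751 CPM in standard libraries), with 3 of 4 tested lower in ladder libraries. Neuron markers summed to 55.0, 553 and 818 CPM in the standard libraries, where replicate 1 stood apart, and to 50.9 to 60.1 CPM in WT ladder libraries, with 4 of 5 lower there. Astrocyte markers summed to 159 to 294 and 492 to 546 CPM (4 of 5 higher in ladder), oligodendrocyte lineage markers to 32.5 to 34.9 and 120 to 169 CPM (3 of 5 higher), and neural progenitor markers to 4562 to 6036 and 10542 to 11190 CPM (3 higher and 2 lower of 6). Fibroblast markers summed to 2.69 to 27.3 and 0.512 to 0.854 CPM (both tested lower in ladder) and microglia markers to less than 1 CPM in every library (1 of 1 lower). No marker was at 0 in all 3 standard libraries. The part of these differences in the shares and levels of the 7 genes was not tested, and the differences between the library types cannot be told apart.

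Gene levels followed no common direction. In KO against WT ladder libraries, AA465934 (log2 difference 2.44) and Arhgef25 (1.10 ± 0.122 SE, from 9.17 to 19.7 CPM) were higher in all KO libraries, and Acad11 (-0.83 ± 0.107, from 29.3 to 16.5 CPM) was lower in all of them. The genotypes' libraries did not overlap in these 3 of 8 genes. Over 18665 genes this held for 46.9%, there by CPM of the plain library total, without the TMM scaling. Exoc1 stood at 16.2, 28.4, 8.47 and 16.6 CPM in WT and 8.19, 9.65, 12.5 and 7.12 CPM in KO, with overlap. Its log2 difference of -0.90 ± 0.333 was -0.56 without WT replicate 2. Tdrd7 (110 and 88.9 CPM), Rai1 (58.5 and 66.8), Abhd16a (30.2 and 24.9) and Srp68 (105 and 112) overlapped between the genotypes too. In such bulk samples, fewer cells of a type and less RNA per cell cannot be told apart. The gene-level test called 53.6% of 18684 genes in this contrast. The same contrast chose the 8 genes, so no test is given for them.

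Between WT ladder and standard libraries, over the targets that all files share, 4 of the 7 genes passed the gene-level test, against 61.1% of 16133 genes. Of the 7, 3 were higher and 1 lower in ladder libraries, against 30.8% and 30.3% of all genes. Acad11 was higher in ladder libraries, at 41.9 ± 1.85 CPM (SD, n = 4) against 10.99 ± 3.31 (n = 3), a log2 difference of 1.93 ± 0.207 SE (adjusted p = 0.00011). Tdrd7 stood at 157 ± 18.9 and 49.9 ± 27.2 CPM (log2 1.66, adjusted p = 0.0029) and Abhd16a at 43.3 ± 6.99 and 20.8 ± 3.99 CPM (log2 1.06, adjusted p = 0.0017). Exoc1 was lower in ladder libraries, at 24.9 ± 11.7 and 58.4 ± 7.72 CPM (log2 -1.23, adjusted p = 0.015). Rai1, Srp68 and Arhgef25 did not pass (adjusted p = 0.052, 0.09 and 0.72). Without standard replicate 1, which stood apart in neuron markers, the log2 differences were 2.20 for Acad11, 2.22 for Tdrd7, 1.18 for Abhd16a and -1.09 for Exoc1, and the same 4 genes passed.

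**Figure D4:**
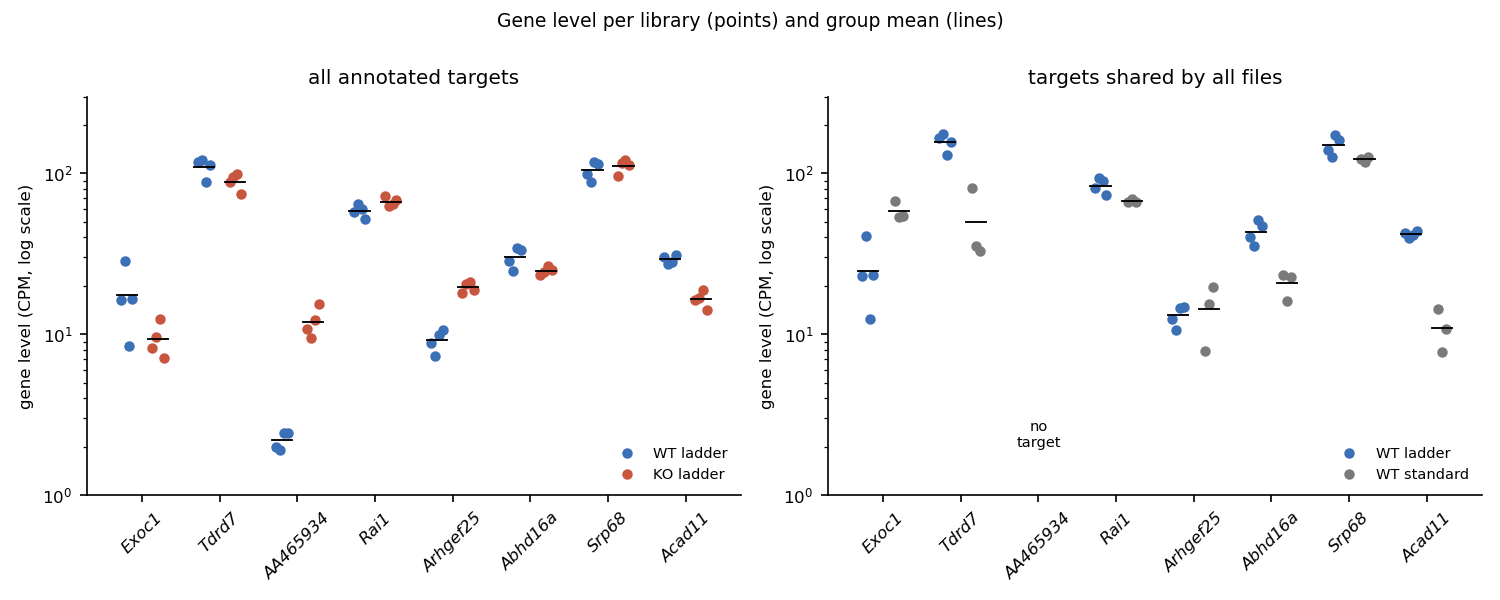
Level of each gene (y axis, CPM, log scale) in single libraries (points) with group means (lines), in WT and KO ladder libraries over all annotated targets (left) and in WT ladder and WT standard libraries over the targets shared by all files (right). AA465934, Arhgef25 and Acad11 separate the ladder genotypes, and Tdrd7, Abhd16a and Acad11 lie higher in ladder than in standard libraries.

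Over all 16 transcripts, the complete intron chain of 9 was in at least 1 StringTie assembly and that of 7 in at least 1 FLAIR assembly. The FLAIR match to AA465934-201 is a WT cDNA structure of 257 bases that does not cover the first intron and is also part of AA465934-202 and AA465934-203. Matched by the introns that tell the pair apart, 8 of the 14 transcripts that have such introns were found by StringTie and 7 by FLAIR. The 3 introns that set Rai1-207 apart from Rai1-202 are also in Rai1-201, so a match to them does not mark Rai1-207. In 6 genes the assemblies of both genotypes held only 1 transcript of the pair. It was the one that gained share in KO in Tdrd7, Srp68 and Acad11 and the one that lost share in Exoc1, AA465934 and Abhd16a. For Exoc1 in KO it was held by FLAIR alone. The whole chains of these transcripts reached at most 49.8 TPM in native RNA and 4.89 TPM in cDNA. Why a transcript was absent from an assembly was not tested.

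The genes that work with the 8 were read in the gene-level test of KO against WT ladder libraries, where 26.4% of 18684 genes rose and 27.3% fell and the median log2 change was -0.03. The gene lists were drawn up with results of these libraries known. Exoc1 was left out of its list, and of the 8 exocyst subunits 2 rose and 2 fell (median log2 -0.20). Exoc8 rose from 20.2 ± 2.52 to 56.2 ± 4.96 CPM (log2 1.48, adjusted p = 1.4e-06), and Exoc6 fell from 17.1 ± 1.73 to 7.75 ± 0.818 CPM (log2 -1.14, adjusted p = 7.9e-06). Exoc3 rose by log2 0.34 and Exoc2 fell with log2 -0.43. Among 10 exocyst GTPases and exchange factors 3 rose and 4 fell (median log2 0.02). Arf6, a small GTPase of membrane traffic, rose from 59.5 to 185 CPM (log2 1.64), and Rab11a, a GTPase of recycling endosomes, fell from 123 to 76.4 CPM (log2 -0.69). Over the alternatives, 1 to 4 rose and 1 to 4 fell. Of 8 tested tudor domain genes, 2 rose (Tdrd3, log2 1.09, and the barely expressed Tdrd12, log2 1.12) and 2 fell (Tdrkh, log2 -0.31, and Tdrd6, log2 -0.64), with a median of log2 0.17 and 0 to 2 falling over the alternatives. Of 9 other genes of the signal recognition particle and its receptor none rose and 4 fell (median log2 -0.28), among them Srp72 (log2 -0.37) and Srpr (log2 -0.35), and the number that fell was 2 by DESeq2 and 0 with no filter or without KO replicate 1.

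Among 14 acyl-CoA dehydrogenases and electron transfer flavoproteins 7 rose and 2 fell, with a median log2 change of 0.24. Acads, the short-chain acyl-CoA dehydrogenase, rose from 41.2 to 83.6 CPM (log2 1.02, adjusted p = 4.9e-06) and Ivd, isovaleryl-CoA dehydrogenase, from 55.4 to 82.7 CPM. The family members Acad12 (log2 -1.17) and Acad10 (log2 -0.77) fell. Of 18 other ABHD hydrolases 4 rose, among them Abhd14b and Abhd14a (log2 0.67 and 0.64), and 7 fell, among them Abhd18 (log2 -1.64) and Abhd17b (log2 -0.75), with a median of log2 -0.14. Both phosphatidylserine synthases rose, Ptdss1 by log2 0.60 and Ptdss2 by log2 0.30, and Pisd, which decarboxylates phosphatidylserine, fell with log2 -0.46. The call of 1 synthase was lost when WT replicate 1, 2 or 4 or KO replicate 2 or 3 was left out. Of 14 circadian clock genes, listed since Rai1 is known to regulate Clock, none rose and 8 fell, with a median of log2 -0.31. Npas2 fell from 1.22 to 0.363 CPM (log2 -1.74) and Nr1d2 from 11.7 to 4.77 CPM (log2 -1.29). Of 3 relatives and reported partners of Rai1, Tcf20 rose (log2 0.73) and Phf14 fell (log2 -0.35), a call that 7 of the alternatives lost.

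The 64442 transcripts of the ranked genes were searched, and matches in the same gene were left out. Most like Exoc1-202 in their shares over the 8 ladder libraries were AA465934-203, with a root mean square distance of 9.58 points, and Egln2-202, at 12.3 points. Egln2-202, of a prolyl hydroxylase gene, held 22.8% ± 9.26 in WT and 82.7% ± 2.38 in KO (SD, n = 4 each). Nearest to Tdrd7-201 were Angel2-202, at 5.73 points, and Acad11-201, at 8.79 points. Angel2-202 held 39.9% ± 27.8 in WT and 94.0% ± 2.64 in KO, a wide WT spread, as for Tdrd7-201. Beside Exoc1-202, the nearest to AA465934-203 was Pdgfra-202, at 14.0 points, which held 20.8% ± 2.71 in WT and 88.6% ± 12.1 in KO. The measure takes the level of the share and its difference by genotype together.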

How the data were processed

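RNA of Mettl14 WT and KO ladder, WT standard and nanopore libraries was measured. The authors quantified short reads with kallisto, per the file headers, and deposited an estimated count, often fractional, and a TPM value, scaled by effective length, for each transcript. Sources used here do not give its version or how the 7 bands were combined. Per the submitters' processing notes, STAR 2.5.4b and StringTie were used for ladder libraries and 1 standard library, kallisto alone is listed for the other 2 standard libraries, and minimap2 2.17 for long reads, all with GRCm38. The authors deposited long-read structures of FLAIR and of StringTie 2.0, per the file headers, the latter with TPM.

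Shares were taken over a gene's GENCODE M21 transcripts. Unannotated targets held 11.9% to 13.4% of ladder counts and entered library totals only. Rounded gene sums passed filterByExpr and TMM scaling before quasi-likelihood tests in edgeR 4.0.16 under R 4.3.3. Usage was tested by diffSpliceDGE with the Simes method. Benjamini-Hochberg adjustment covered all genes, at a threshold of 0.05. Ladder against standard used targets that all files share. The tests were checked on simulated data. Alternatives were DESeq2 1.42.0 and its size factors, diffSplice of limma 3.58.1, no filter, TPM shares, single replicates left out and a replicate block. Long-read structures were matched by intron chain.

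The genes, gene lists and tests were chosen with earlier results of these data known, and 1 gene list is not reported here. Transcripts are named at 10% of their gene or more in a group, or for the largest gain or loss, and up to 2 rises and 2 falls per list. Labels do not say that replicates came from separate animals or cultures, so p-values may measure technical spread.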

Additional observations from a re-analysis of the deposited data

Results flagged for a closer look

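Among 55 groups of 4 ladder libraries whose transcript shares or gene levels were examined, 3 had 1 library far from the others. All of these were groups of shares. About 1 group in 20 is set apart this way by chance. Tdrd7-201 held 8.64% of its gene in WT ladder replicate 2, against 45.8% to 52.8% in the other 3 WT libraries. Tdrd7-202, the other transcript of the pair, held 90.85% in the same library, against 46.5% to 53.6%, so both values describe 1 shift. Arhgef25-201 held 62.9% in KO ladder replicate 2, against 36.9% to 41.2% in the other 3 KO libraries.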

How the results depend on the processing

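Over 78 results and 872 alternatives, 800 kept their direction, their side of the threshold or their size, and 1 changed sign. The Arhgef25 level in WT ladder against standard libraries was log2 0.17 without standard replicate 3, in place of -0.13, and -0.40 without standard replicate 1. By limma diffSplice, 4586 genes differed in usage between KO and WT ladder in place of 2065. As shares of TPM, Exoc1-202 differed by 68.1 and Rai1-202 by 12.7 points.

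Leaving out 1 library gave 9005 to 9954 genes (level) and 1550 to 1779 (usage) for KO against WT ladder, and 8576 to 10797 and 4871 to 6149 for ladder against standard. Share differences ranged over 84.7 to 85.7 points for AA465934-203, 79.4 to 87.7 for Exoc1-202, 47.7 to 62.4 for Tdrd7-201, 49.2 to 56.4 for Acad11-201, 38.3 to 47.0 for Arhgef25-201, 22.3 to 38.5 for Srp68-201, 23.9 to 33.1 for Abhd16a-207 and 13.8 to 15.03 for Rai1-202.

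Same-numbered samples did not deviate together (correlations from -0.0358 to 0.0661). This check gave no sign that the numbers pair them, but it cannot exclude a pairing in the design. With the replicate block, KO against WT ladder gave 1817 genes in usage and 9949 in level, and ladder against standard 4184 and 7496. The cause of these changes was not tested. AA465934 had the fewest counts, which limits its WT shares.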
